A study of Mus musculus with 9 samples.

Results

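Cadherins are calcium-dependent adhesion proteins that join neighbouring cells through repeats of an extracellular domain, and the classical types are tied to actin by catenins. In the heart, N-cadherin (Cdh2) holds cardiomyocytes together at the intercalated disc, VE-cadherin (Cdh5) seals endothelium, and T-cadherin (Cdh13), which has a lipid anchor in place of a cytoplasmic tail, binds adiponectin. Most type II cadherins and the protocadherins are known best from the nervous system, and the clustered protocadherins give neurons a surface identity. Some genes of these groups are very long. The genes described here are those whose symbol in the deposited table starts with Cdh and a digit or with Pcdh. They were on 561 distinct extrachromosomal circular DNAs (eccDNAs, called circles below) of 149584. Because a large circle can carry several genes, the unit was the distinct pair of circle and gene, and the family had 587 of the table's 68857 pairs and 55 of its 14085 genes.

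Circles had been purified from hearts of wild type C57BL/6J mice and sequenced as Circle-seq libraries, 3 each from embryonic (E18), neonatal (3d) and adult (8w) animals, and the labels give no treatment for any group. By the labels the source was heart and the cells were cardiocytes. They number the libraries of a stage as biological replicates 1 to 3 and state no sex or pooling, and p-values measure the spread among these libraries. The assay reads DNA, so cell type markers could not check the label. In bulk DNA, more cells with a circle and more circles per cell cannot be told apart.

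The libraries held 11377 to 846374 split reads (reads across a circle's junction) and 3931 to 42963 circles, a circle being present with at least 1 split read. The 8w replicate 1 and 3d replicate 1 libraries stood apart with 60.5% and 37.9% of their circles called from a single read, a share that was 6.21% to 16.7% in the other 7. In 8w replicates 2 and 3, 89.2% and 83.4% of all circles were shorter than 250 bp, against at most 46.0% elsewhere. These differences in depth and length move with the stages, and their part in the stage comparisons below was not tested. Intervals given for a single library cover counting error only, since reads amplified with phi29 polymerase are not independent molecules. Intervals of ratios of pooled shares, which sum circles over the libraries of a stage, also leave out the spread among libraries.

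Family circles were almost all small pieces inside long genes, and the 2 that reached a RefSeq promoter window are shown with its sequence. Of 25 RefSeq promoter windows (250 bases before to 50 after a gene start) that matched 22 family genes by symbol, 2 (8%) were overlapped by a circle of up to 100 kb, beside 1035 (3.15%) of all 32851 windows. Both genes are type II cadherins of the nervous system on chromosome 15, and both windows lie on the + strand of GRCm38.p6. The Cdh10 window (chr15:18820079-18820378) met a circle of 351 bp at chr15:18820267-18820617, which had 15 split reads in 3d replicate 2 and none in the other 8 libraries. The Cdh12 window (chr15:21111202-21111501) met a circle of 368 bp at chr15:21111368-21111735, which had 91 split reads in E18 replicate 1 and none elsewhere. The bases inside the circle are in capitals, 112 of the Cdh10 window and 134 of the Cdh12 window.
Cdh10: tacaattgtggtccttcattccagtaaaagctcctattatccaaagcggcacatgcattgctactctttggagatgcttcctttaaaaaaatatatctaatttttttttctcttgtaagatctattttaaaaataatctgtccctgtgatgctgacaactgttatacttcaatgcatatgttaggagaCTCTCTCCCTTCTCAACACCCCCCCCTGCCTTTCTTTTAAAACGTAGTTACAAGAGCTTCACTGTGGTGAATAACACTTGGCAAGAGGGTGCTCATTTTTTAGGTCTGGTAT
Cdh12: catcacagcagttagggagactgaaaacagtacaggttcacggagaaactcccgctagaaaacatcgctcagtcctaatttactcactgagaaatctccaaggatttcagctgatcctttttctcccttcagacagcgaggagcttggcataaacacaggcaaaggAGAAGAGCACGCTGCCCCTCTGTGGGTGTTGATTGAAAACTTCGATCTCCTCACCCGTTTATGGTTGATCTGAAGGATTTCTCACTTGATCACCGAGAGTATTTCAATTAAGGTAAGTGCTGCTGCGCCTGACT
The capitals run to the end of each window, so each circle began shortly before the start that its window marks and went on past it. It began 62 bases before that start in Cdh10 and 84 in Cdh12. The RefSeq span of Cdh12, of 1150 kb, is longer than the table's model of 478 kb. Whether the start marked by the Cdh12 window is the outer end of the RefSeq span was not examined. The table's own gene model starts Cdh10 further upstream, so that by the table the Cdh12 circle was the single family circle of up to 100 kb that held a gene start. GC content was 37.7% in the Cdh10 window and 46.7% in the Cdh12 window, against a median of 52.7% over all windows. The letters TATAAA and GGGCGG, searched on both strands, were in neither window, and 13.6% and 35.7% of all windows hold them.

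Apart from 4 very large circles, the family was met as short fragments of its genes. The other 557 circles were 48 to 2946 bp long, and 556 of them lay wholly inside the gene on their line. The 3 longest of these were a circle of 2946 bp in Cdh8 (4 reads in 3d replicate 3), of 2469 bp in Pcdh15 (8 reads in 3d replicate 1) and of 2318 bp in Cdh22 (12 reads in 3d replicate 2). The median over distinct circles was 371 bp, against 369 bp for all circles of the table. Whether a circle overlapped an exon or an intron was not analysed here.

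The 4 large circles carried 30 of the 587 pairs, and each was seen in 1 or 2 libraries. The largest, 9879345 bp at chr18:34660155-44539499 (GRCm38), had 8 split reads in E18 replicate 1 and none in the other libraries. It spanned 26 family genes of 126 table genes, among them every Pcdhb gene of the table. A circle of 8652536 bp at chr8:116321292-124973827 carried Cdh13 and Cdh15 (M-cadherin, of skeletal muscle) with 10 reads in E18 replicate 2. Cdh15 was also on a circle of 4443067 bp at chr8:121081230-125524296, with 1 read in 3d replicate 1 and 29 in 3d replicate 2. Cdh17 (liver-intestine cadherin) was on a circle of 7604764 bp at chr4:9783496-17388259, with 3 reads in 3d replicate 1. The whole table held 79 circles over 100 kb. These calls rest on reads across the junction, and 21 of the 55 family genes had no circle other than these.

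The number of circles on a family gene followed the length of the gene. Over the 31 cadherins and non-clustered protocadherins of the table, gene length and the number of circles of up to 100 kb had a Spearman rho of 0.954 and a Pearson r of 0.957, against 0.822 and 0.963 over 12526 genes. This is across genes of the same 9 libraries, which are not independent replicates. The 4 richest genes, Pcdh15, Cdh13, Cdh18 and Pcdh9, held 261 of the 587 pairs (44.5%) and were the 4 family genes with a circle in every library. Of the 55 genes, 19 had at least 10 circles summed over the libraries, 8 had 5 to 9, 5 had 2 to 4, and 23 had 1. RefSeq lists 92 family genes, of which 35 are not in the clusters, and 32 of those 35 overlapped a circle of up to 100 kb. Cdh24, Pcdh18 and Pcdh8, of 4.54 to 14.1 kb, overlapped none. Cdh16 has no line in the table but overlapped 1 circle by its RefSeq span.

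**Figure D1:**
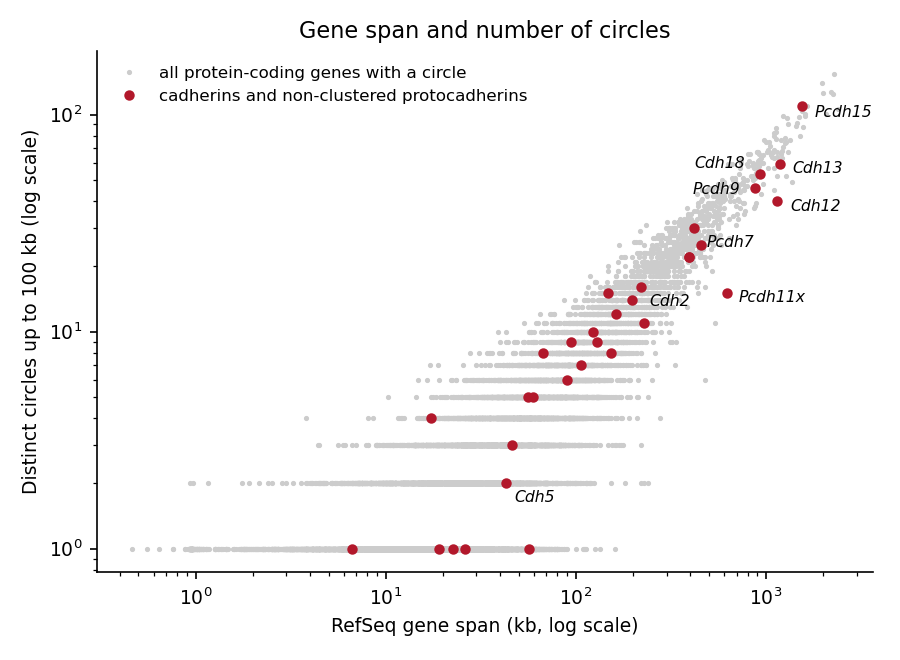
Distinct circles of up to 100 kb (vertical, log scale) against RefSeq gene span in kb (horizontal, log scale), 1 point per gene with a circle; red points are cadherins and non-clustered protocadherins, grey points all protein-coding genes. Red points follow the grey band, with Pcdh11x (15 circles) and Cdh12 (40 circles by its RefSeq span) at its lower edge.

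Per length, the median density of the long family genes was somewhat below that of all genes of their size. Among genes of 200 to 500 kb by RefSeq, the 13 family genes had a median of 46.8 circles per Mb, against 65.5 over 763 genes. The non-clustered genes of this class all lay above 46.8 by the table's gene models. Cdh2 had 72.6 per Mb, Pcdh7 70.5, Cdh8 56.1, Cdh23 55.9, Cdh4 54.7 and Cdh20 48.5. The rest are clustered protocadherins with overlapping spans, and they set the median. Among genes over 500 kb, the 6 family genes, all non-clustered, had a median of 51.1 per Mb and ranged from 24.2 to 70.2. The median over 227 genes was 63.3. In the class of 50 to 200 kb, the median was 67.0 per Mb for 37 family genes and 64.4 for 3955 genes. These medians are descriptions with no test, and many genes of the protocadherin clusters share one stretch of DNA and so the same circles. The lowest density of the longest class was that of Pcdh11x, a delta-1 protocadherin on the X chromosome, with 15 circles on 620 kb.

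The family's share of circles was lowest at 3d. Pairs per 10000 circles of the library were 45.9, 38.7 and 41.0 in the E18 replicates, 30.4, 30.8 and 37.7 at 3d, and 38.2, 39.4 and 49.7 at 8w. All 3 libraries of 3d lay below all 6 others, and the E18 and 8w libraries overlapped. Stage means were 41.9 ± 3.68 (SD, n = 3) at E18, 33.0 ± 4.10 (SD, n = 3) at 3d and 42.4 ± 6.31 (SD, n = 3) at 8w. The Wilson 95% interval of the highest 3d library, 32.3 to 44.0, held the value of every E18 and 8w library but E18 replicate 1 and 8w replicate 3. Without the circles over 100 kb, E18 replicate 1 had 38.6 in place of 45.9, and the E18 mean was 38.7 ± 2.25 (SD, n = 3). E18 replicate 2 then had 36.5 against 37.7 in 3d replicate 3, and the 2 stages overlapped. By RefSeq spans, with each circle counted once, 3d replicate 3 had 40.3 against 37.6 in E18 replicate 2. At an equal depth of 11377 split reads per library (1 random draw), the shares were 28.5 to 45.1 at E18, 30.5 to 38.0 at 3d and 31.6 to 48.5 at 8w, and the 3 stages overlapped. Up to 100 kb and by RefSeq spans, all 3d libraries still lay below all 8w libraries. The full separation was also seen with at least 2 reads for presence, where 3d reached 37.4 and the others began at 38.0, and per 10000 pairs of circle and gene, where these were 77.6 and 78.9.

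**Figure D2:**
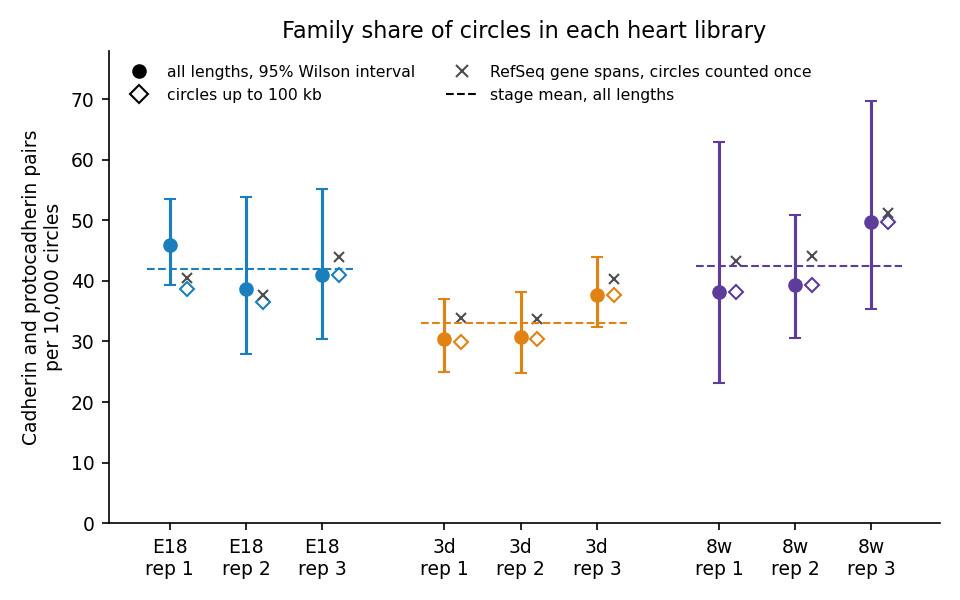
Pairs of a circle and a cadherin or protocadherin gene per 10000 circles in each of the 9 libraries: filled points for all lengths with Wilson 95% intervals (counting error only), diamonds for circles of up to 100 kb, crosses for RefSeq spans, dashed lines for stage means. The 3d points, 30.4 to 37.7, are the lowest at all lengths, while the diamond of 3d replicate 3 is above that of E18 replicate 2.

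The lengths of family circles followed those of the library they came from. Adult replicates had family medians of 284, 151 and 96 bp. The neonatal ones had 402, 367.5 and 413.5 bp, and the embryonic ones 374, 357.5 and 367 bp. All 3 adult libraries had shorter family circles than all 6 others. Over all circles of the same libraries the adult medians were 331, 135 and 103 bp, below the 366 to 369 bp of E18 and the 368 to 405 bp of 3d, which gives the same separation. The share of family circles under 250 bp was 40.0%, 81.0% and 90.9% in the adult replicates (Wilson 95% intervals 19.8 to 64.3%, 69.1 to 89.1% and 76.4 to 96.9%). It was 16.3% to 20.6% at E18 and 8.64% to 21.95% at 3d. Circles over 1000 bp made up 16.05% of the family circles of 3d replicate 3 and 12.8% of all its circles.

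**Figure D3:**
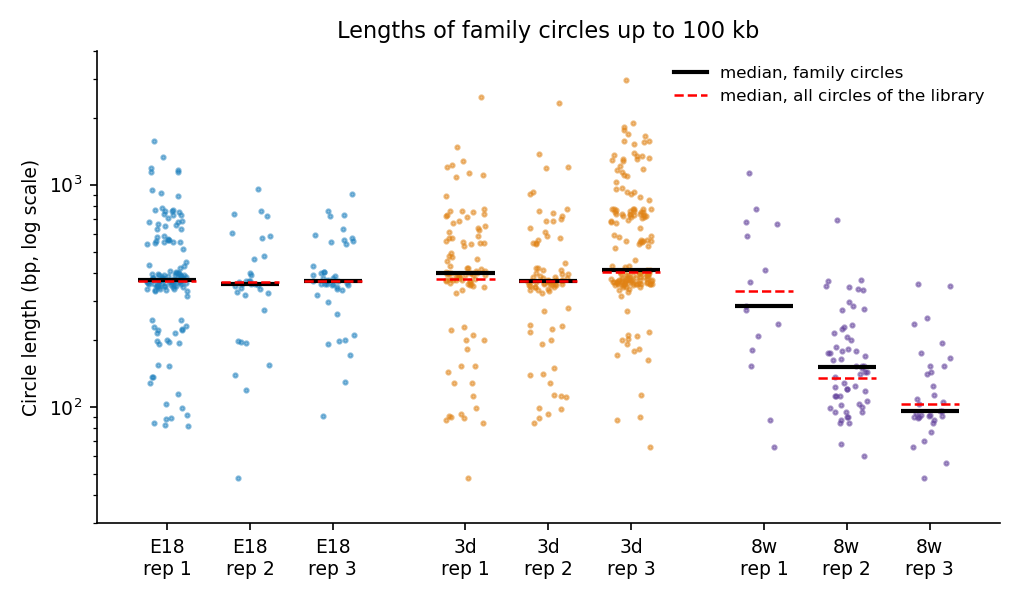
Lengths in bp (log scale) of family circles of up to 100 kb in each library, 1 dot per circle, with the median of all family circles (black) and of all circles of the library (red, dashed). Black and red lines lie close together in each library, and both are lowest at 8w (96 to 284 bp for the family).

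Single genes were compared between stages by the number of their circles in each library, relative to all circles of the library, with edgeR's quasi-likelihood test on the 2174 genes that had at least 10 circles. The 19 family genes of that depth entered it, and the other 36 were too sparse. No family gene passed in any comparison, and neither did any other gene: 0 of 2174 (0%) had an adjusted p under 0.05 for 3d against E18, for 8w against 3d, or for 8w against E18. At an unadjusted p under 0.05 there were 98 (4.51%), 100 (4.6%) and 139 (6.39%) genes, of which 3, 2 and 1 were of the family. DESeq2 also called 0 genes in each comparison. The comparisons share libraries pairwise, so they are not independent. Log2 differences below are relative to the median over all genes tested. That median was -0.19 when 8w was set over E18, -0.26 when 8w was set over 3d, and 0.10 when 3d was set over E18. The SE and adjusted p printed with a log2 difference are those of the value before this shift.

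Some family genes had libraries that did not overlap between stages. For 3d against E18, 5 of 19 (Cdh18, Cdh4, Cdh7, Pcdh11x and Pcdh7) were lower in every 3d library, where 4.69% of all genes tested were, and 2 (Cdh2 and Cdh23) were higher in each, where 7.77% were. For 8w against 3d, Cdh22 was lower in every adult library, where 16.7% of genes were, and Cdh18 was higher, where 2.62% were. For 8w against E18, Cdh4 and Cdh6 were lower, where 6.81% were, and none was higher, where 2.58% were. No p is given for these counts, and the genes are described below by subfamily.

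**Figure D4:**
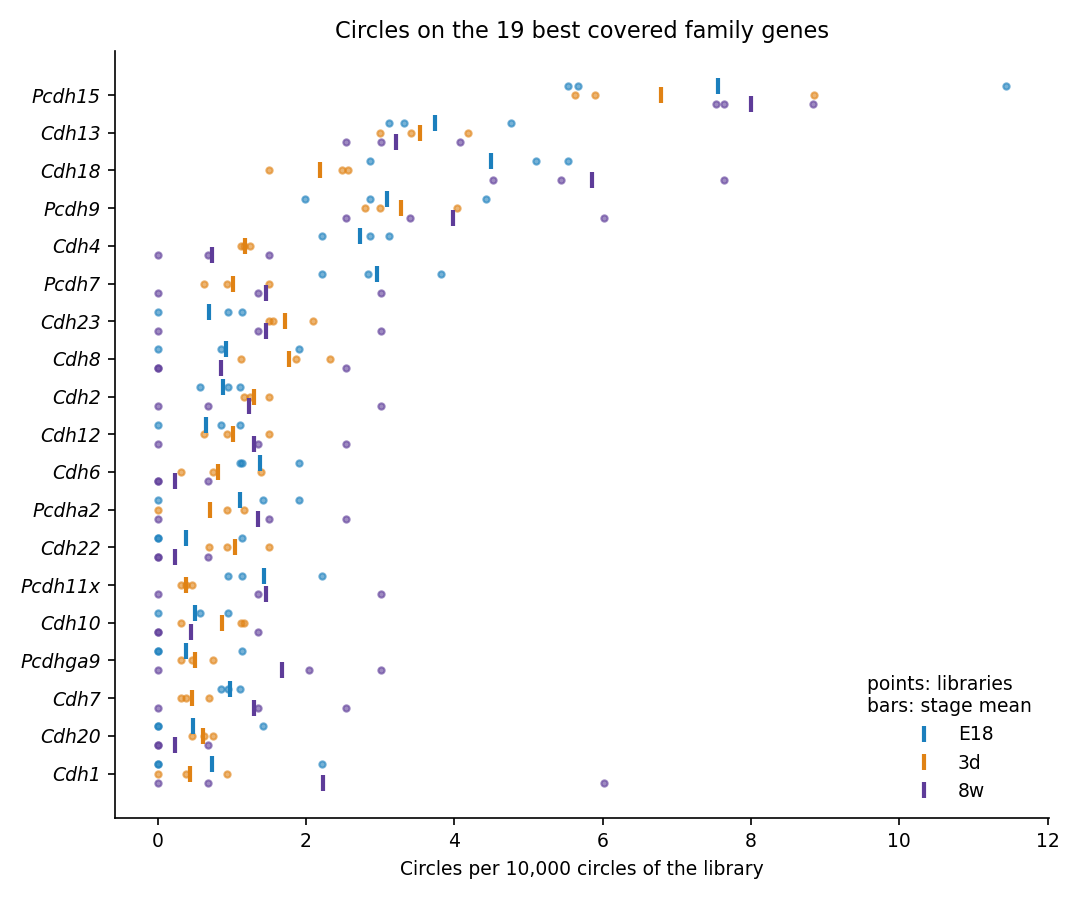
Circles per 10000 circles of the library on the 19 family genes with at least 10 circles summed (horizontal axis, not scaled to gene length); points are libraries and vertical bars stage means of 3. The E18 points of Cdh18, Cdh4 and Pcdh7 all lie to the right of the 3d points, and most genes below Pcdh7 have libraries at 0.

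The type I cadherins are the classical adhesion proteins of muscle, epithelium and brain, and 5 of them had circles. Pairs per 10000 circles were 4.19 ± 5.59 in adults, 3.35 ± 0.681 in neonates and 5.18 ± 2.23 in embryos (SD, n = 3). Every E18 library, from 3.81, lay above every 3d library, up to 3.75, and the adult ones, from 0 to 10.5, overlapped both. N-cadherin, Cdh2 (chr18:16588877-16809246, - strand), had 2, 1 and 1 circles in the E18 replicates, 4, 4 and 5 at 3d, and 0, 1 and 2 at 8w. Relative to library size, 3d lay above E18 in every library, at 1.30 ± 0.176 against 0.876 ± 0.278 per 10000 circles, and the adult libraries spanned both. In 3d replicate 1, the circles at chr18:16674733-16675493 and chr18:16806896-16807468 had 1 read each. The former had 14 reads in E18 replicate 2 and the latter 21 in E18 replicate 3. In 3d replicate 3, the circle at chr18:16778755-16779108 had 1 read, beside 52 in E18 replicate 1. The order of 3d above E18 thus rests in part on single reads. The log2 difference was 0.66 for 3d over E18 (SE 0.80, edgeR adjusted p = 0.967). The 16 distinct Cdh2 circles were 89 to 1518 bp long and lay all along its 220 kb, and 4 were seen in 2 libraries.

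R-cadherin, Cdh4 (chr2:179442431-179899373, + strand), known from retina, brain and kidney, had the largest share of circles at E18. It had 11, 2 and 3 circles at E18, 4, 3 and 5 at 3d, and 0, 1 and 1 at 8w. The means per 10000 circles were 2.73 ± 0.467, 1.18 ± 0.0595 and 0.728 ± 0.754 (SD, n = 3), with every E18 library above every library of 3d and of 8w. The log2 difference was -1.36 for 3d over E18 (SE 0.56, edgeR adjusted p = 0.967), so Cdh4 was not among genes called. For 8w over E18, the ratio of pooled shares was 0.271 with an exact 95% interval of 0.0302 to 1.15, from 2 adult circles.

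E-cadherin, Cdh1 (chr8:106603351-106670246, + strand), the adhesion protein of epithelium, had most of its adult circles in 1 library. It had 0, 2 and 0 circles at E18, 3, 1 and 0 at 3d, and 0, 1 and 4 at 8w. Of the 4 in 8w replicate 3, circles of 96 and 94 bp (chr8:106630618-106630713 and chr8:106630619-106630712) differed by 1 base at each end, with 21 and 22 reads. They shared 97.9% of the longer circle and were the single pair of family circles with over 90% reciprocal overlap. On the log2 scale adults lay 2.42 above 3d (SE 1.00, edgeR adjusted p = 0.692) and 2.45 above E18 (SE 1.14, edgeR adjusted p = 0.732), neither called. Before the shift, the difference from E18 was 2.26, and 0.90 without E18 replicate 1 or 3.18 without 8w replicate 2. That from 3d was 2.16, and 1.45 without 3d replicate 3 or 3.09 without 8w replicate 2. Without E18 replicate 2, 3d replicate 1 or 8w replicate 3, the gene had under 10 circles and was not tested. Cdh3 (P-cadherin) had 3 circles and Cdh15 had 4.

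The type II cadherins, mainly of neurons and mesenchyme, were the subfamily with the most pairs, 173 over 12 genes. Their libraries overlapped, with 7.52 to 17.8 pairs per 10000 circles in adults, 8.39 to 11.9 in neonates and 9.54 to 13.6 in embryos. In the test, 8 entered, and 4 were higher and 4 lower at 3d than at E18, with a median log2 difference of -0.05 before the shift, beside 0.10 over all genes. Cdh18 (chr15:22549022-23474418, + strand), a neuronal cadherin of 925 kb, was lowest at 3d. Its libraries had 18, 5 and 3 circles at E18, 8, 4 and 11 at 3d, and 3, 8 and 3 at 8w, or 4.50 ± 1.43, 2.18 ± 0.591 and 5.86 ± 1.60 per 10000 circles (SD, n = 3). Every 3d library lay below every other library, an order that rests in part on single reads. In E18 replicate 3, the circle at chr15:23208347-23208775 had 1 read. In 8w replicate 1, those at chr15:23000124-23000900 and chr15:23000185-23000271 had 1 read each. Neither log2 difference was called, at -1.15 from E18 to 3d (SE 0.42, edgeR adjusted p = 0.765) and 1.53 from 3d to 8w (SE 0.52, edgeR adjusted p = 0.692). With edgeR's TMM scaling the second, before the shift, was 0.61 in place of 1.27, and the median of all genes was -0.85 in place of -0.26.

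Cdh7 and Cdh6 each had more circles at E18 than at one later stage, relative to library size. Cdh7, of neural tissue, had 3, 1 and 1 circles at E18, 1, 1 and 3 at 3d, and 1, 2 and 0 at 8w. Every E18 library was above every 3d library, at 0.970 ± 0.129 against 0.461 ± 0.208 per 10000 circles (SD, n = 3), and the adult libraries spanned both. Cdh6 (K-cadherin, of kidney and neural tissue) had 4, 1 and 2 circles at E18, 1, 2 and 6 at 3d, and 0, 1 and 0 at 8w. Its E18 libraries were all above its adult ones. Cdh6 also held the family circle with the most reads, 372 bp at chr15:13106449-13106820, with 231 split reads in 3d replicate 1 and 1 in 3d replicate 3.

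Cdh8, Cdh22 and Cdh10, of the brain, had most of their circles at 3d, the stage whose libraries also held the most circles in all. Cdh8 had 3, 0 and 2 circles at E18, 6, 3 and 10 at 3d, and 1, 0 and 0 at 8w, and its E18 and 3d libraries overlapped. For 8w over 3d the ratio of pooled shares of Cdh8 was 0.212, with an exact 95% interval of 0.00510 to 1.33. Cdh22 had 4, 0 and 0 circles at E18, 3, 4 and 3 at 3d, and 0, 1 and 0 at 8w. Its adult libraries, at 0.226 ± 0.392 per 10000 circles (SD, n = 3), all lay below those of 3d, at 1.04 ± 0.413. From 1 adult circle, the ratio of pooled shares of Cdh22 for 8w over 3d was 0.402, with an exact 95% interval of 0.00927 to 2.83. Cdh10, whose promoter circle is printed above, had 2, 0 and 1 circles at E18, 1, 3 and 5 at 3d, and 0, 2 and 0 at 8w, with overlap throughout.

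Cdh12 and Cdh20 showed no separation. Cdh12 had 3, 1 and 0 circles at E18, 2, 4 and 4 at 3d, and 1, 2 and 0 at 8w. The table's model of Cdh12, of 478 kb, met 15 distinct circles, whereas its RefSeq span of 1150 kb met 40, so its count depends on the gene model. Cdh20 had 5, 0 and 0 circles at E18, 2, 2 and 2 at 3d, and 0, 1 and 0 at 8w. VE-cadherin, Cdh5 (chr8:104101625-104144502, + strand), had 0 circles in every E18 and adult library and 1 in each 3d library. The 3 came from 2 distinct circles of 128 and 172 bp, with 3 reads in each library. Since 3 circles equal the limit that a count of 0 allows, no fold is given, and a difference between stages was not detectable at this depth on a gene of 42.9 kb. Cdh11 (OB-cadherin, of mesenchyme) had 9 circles, Cdh19 had 7 and Cdh9 had 6.

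Among the other cadherins, T-cadherin (Cdh13, chr8:118283733-119324921, + strand) was not separated by stage. It had 11, 3 and 5 circles at E18, 11, 8 and 18 at 3d, and 1, 6 and 2 at 8w, or 3.74 ± 0.900, 3.54 ± 0.603 and 3.21 ± 0.785 per 10000 circles (SD, n = 3). Of the 3 circles in E18 replicate 2, 1 is the circle of 8652536 bp. The stages overlapped. From 9 adult circles, the ratio of pooled shares for 8w over E18 was 1.03, with a wide exact 95% interval of 0.409 to 2.38. Larger libraries weigh more in this ratio, and the mean share was lower at 8w. The best covered Cdh13 circle, 356 bp at chr8:118351416-118351771, had 109 reads in 3d replicate 2 and 1 in 3d replicate 3. Cdh23, which forms the upper end of the tip link of hair cells, had 4, 0 and 1 circles at E18, 5, 4 and 9 at 3d, and 0, 2 and 2 at 8w. Its 3d libraries, at 1.72 ± 0.329 per 10000 circles, were all above those of E18, at 0.696 ± 0.609 (SD, n = 3). The log2 difference was 0.81 (SE 0.70, edgeR adjusted p = 0.967). Cdh17 had 6 circles and Cdh26 had 1.

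Pcdh15, which meets Cdh23 at the lower end of the tip link, had more circles than any other family gene at every stage. On its 1547 kb (chr10:73099342-74646314, + strand) it had 20, 5 and 12 circles at E18, 19, 15 and 38 at 3d, and 3, 13 and 5 at 8w. Per 10000 circles these were 7.55 ± 3.37, 6.79 ± 1.78 and 8.00 ± 0.725 (SD, n = 3), and the stages overlapped. Log2 differences were -0.03 from E18 to 3d (SE 0.29) and 0.49 from 3d to 8w (SE 0.36), with edgeR adjusted p of 0.967 and 0.930. Before the shift they were 0.07 and 0.23. The ratio of pooled shares for 3d over E18 was 1.05 with an exact 95% interval of 0.695 to 1.60. Larger libraries weigh more in this ratio, and the mean share was lower at 3d. The density of Pcdh15 was 70.5 circles per Mb, the same as that of Pcdh7 below. The best covered Pcdh15 circles were of 369 bp at chr10:73243884-73244252, with 154 reads in E18 replicate 1 and 1 in 8w replicate 2, and of 550 bp at chr10:73634187-73634736, with 115 reads in E18 replicate 1 and 1 in E18 replicate 3.

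The 2 smaller genes listed with Pcdh15 had few circles. Pcdh12 (an endothelial protocadherin) had 7 on 17.3 kb, and Pcdh20 had 1.

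The delta-1 protocadherins, adhesion proteins with a long conserved cytoplasmic tail, had their smallest share at 3d. These were 4.76 ± 0.293 pairs per 10000 circles, beside 7.57 ± 1.31 in embryos and 6.90 ± 4.80 in adults (SD, n = 3). All E18 libraries, from 6.24, lay above all 3d libraries, up to 4.97, and the adult ones spanned both, from 2.54 to 12.04. Of 3 genes tested, 2 were lower and 1 higher at 3d than at E18, and 0 were called. Pcdh7 (chr5:57718021-58129351, + strand), a protocadherin with several tail isoforms, had 10, 2 and 4 circles at E18, 2, 4 and 4 at 3d, and 0, 2 and 2 at 8w. Its E18 libraries, at 2.95 ± 0.808 per 10000 circles, all lay above those of 3d, at 1.02 ± 0.446 (SD, n = 3). The log2 difference was -1.61 (SE 0.58, edgeR adjusted p = 0.763).

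Pcdh11x (chrX:120290259-120910619, + strand) had the same order and Pcdh9 did not. Pcdh11x had 4, 2 and 1 circles at E18, 1, 1 and 2 at 3d, and 0, 2 and 2 at 8w, with every E18 library above every 3d library. Its log2 difference was -1.65 for 3d over E18 (SE 0.89, edgeR adjusted p = 0.967). Pcdh9 (chr14:93015512-93888732, - strand), of brain, had 7, 4 and 3 circles at E18, 13, 8 and 12 at 3d, and 1, 5 and 4 at 8w. At 3.09 ± 1.24, 3.28 ± 0.667 and 3.99 ± 1.81 per 10000 circles (SD, n = 3), its stages overlapped. Pcdh1 had 2 circles, one of them the largest circle of the family.

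The delta-2 protocadherins had 21 pairs over Pcdh17, Pcdh10 and Pcdh19, with 9, 8 and 7 circles summed, and none was tested. Pcdh10, an adhesion protein of developing brain, held the most recurrent circle of the family. This circle of 338 bp (chr3:45409795-45410132) had 73, 1 and 1 reads in the E18 replicates and 3 in 3d replicate 2. It was the single family circle in all 3 libraries of a stage, and 2 of its 3 values at E18 were 1 read.

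The clustered protocadherins lie side by side on chromosome 18, and many share constant exons and overlapping spans. The table names 24 of them, whereas RefSeq lists 57, and 21 of the 24 owed every pair to the circle of 9879345 bp. Pcdha2 had 5, 0 and 2 circles at E18, 3, 0 and 5 at 3d, and 1, 0 and 1 at 8w. Pcdhga9 had 4, 0 and 0 at E18, 1, 2 and 2 at 3d, and 0, 3 and 2 at 8w. Their spans in the table, 257 and 168 kb, cover other genes of the alpha and gamma clusters, so their circles cannot be assigned to a single gene, and 1 circle of each in E18 replicate 1 is the large one. A circle of 892 bp in Pcdhga9 (chr18:37707934-37708825) had 111 reads in E18 replicate 1 and none elsewhere. Without the large circle the subfamily had 24 pairs, at 1.39 ± 1.22, 1.21 ± 0.440 and 3.03 ± 1.31 per 10000 circles (SD, n = 3), and 1 E18 library had 0.

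Within long genes, circles were spread over the whole span. In 5 equal parts from the annotated start, Pcdh15 had 31, 24, 24, 16 and 14 circles of up to 100 kb, so fewer towards its end. Cdh18 had 10, 13, 10, 10 and 9, and Cdh13 had 7, 11, 10, 14 and 11. Pcdh9 had 10, 6, 6, 10 and 14, and Cdh8 had 2, 5, 3, 3 and 9, with the most in the last part of each. No test was made of these positions, and the widest stretch without a circle centre was 42.0 to 77.1 kb in the 8 genes so counted. Among distinct family circles of up to 100 kb, 9 pairs overlapped, in 5 genes, and 5 of these pairs were within 1 library.

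**Figure D5:**
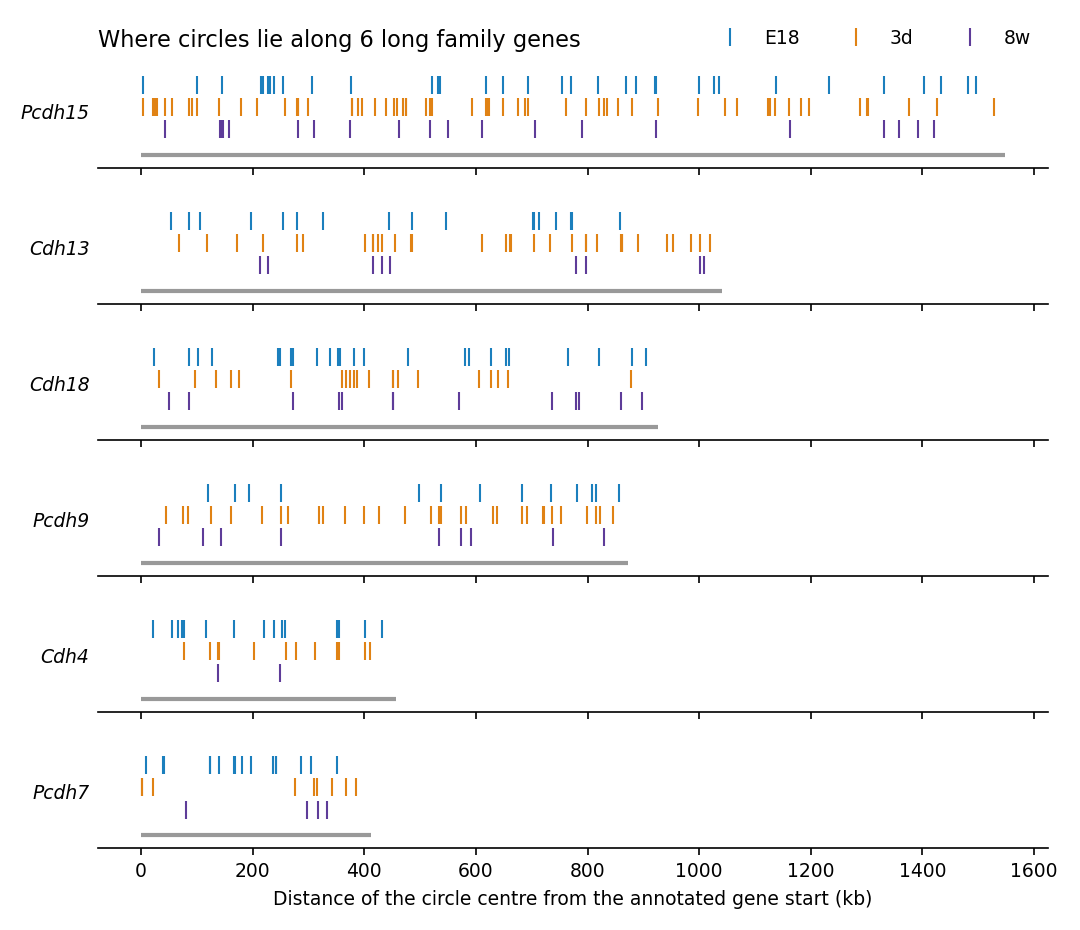
Centres of circles of up to 100 kb along the 6 family genes with the most circles, as distance in kb from the annotated gene start; the grey bar is the gene, and each tick is a circle seen at E18 (top row), 3d (middle) or 8w (bottom). Ticks are spread along each gene, with few at 8w in Cdh4 and Pcdh7, and the counts for Pcdh15 fall from 31 in the first of 5 equal parts to 14 in the last.

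Few family circles were seen again in another library. Of the 587 pairs, 496 (84.5%) were in 1 library, against 80.1% of all pairs, 82 were in 2, 8 in 3 and 1 in 4. Of the 91 in several libraries, 52 included 3d replicate 1, and 35 of those had 1 read there. Leaving out that library, 44 were shared. With at least 2 reads in at least 2 libraries there were 33 (5.62% of family pairs, against 6.38% of all pairs). By stage, 194 pairs (33.0%, against 26.8% of all pairs) were seen at E18 alone, 262 (44.6%, against 51.3%) at 3d alone and 72 (12.3%, against 9.34%) at 8w alone. A further 28 were at E18 and 3d, 22 at 3d and 8w, 6 at E18 and 8w, and 3 at all stages.

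None of the cadherins' partners was called either. Of the catenins and plakophilins, which link cadherins to the cytoskeleton, 9 had a circle, 5 were tested and 0 were called in any comparison. Before the shift, their median log2 difference was 0.11 from E18 to 3d and -0.89 from 3d to 8w, beside 0.10 and -0.26 over all genes. The longest of them were rich in circles, with 108 summed on Ctnna3 (alpha-T-catenin, of the intercalated disc), 93 on Ctnna2 and 73 on Ctnnd2. Of the other cadherin superfamily genes, such as Fat3, Clstn2 and Celsr1, 22 had a circle, 3 were tested and 0 were called.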

How the data were processed

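Circle-seq libraries of mouse heart, 9 in all, were analysed from a deposited table in which a line holds 1 circle and, where it overlaps a gene, 1 annotated gene. Per the labels' protocols, circular DNA was purified with alkaline treatment and columns, amplified with phi29 polymerase, sonicated and sequenced. The submitters' processing notes list BWA 0.7.12, bedtools 2.27.1, cutadapt 1.9.1, SAMtools 1.9 and edgeR (with 0.6.9 as its version), and the builds GRCm38 and mm10. Circles were identified with Circle-Map, per the file headers (version and filters: not given in the sources used here). Taken from the table were deposited values of 1 kind, the count of split reads per circle and library. The log2 values beside them, normalized by the authors per the file headers, were used only for a check: in all 9 libraries a count of 0 has the value 3.01. The deposited length column gives the circle's size in bp.

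Circle starts are printed 1 higher than in the table, which counts them from 0. Gene starts are printed as deposited, since 4295 of 12744 genes matched by symbol have the start of RefSeq and 144 a start 1 lower. No genome sequence was used, so the base composition of circles and exons were not analysed here. Promoter windows are from RefSeq.

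Members and lists were chosen with earlier results of these data known. Stages were compared with edgeR 4.0.16 (R 4.3.3), with 1 fit of all 9 libraries, stage as the only term, library totals of all circles as scaling and Benjamini-Hochberg adjustment over the 2174 genes with at least 10 circles (threshold 0.05). TMM and DESeq2 1.42.0 were alternatives. On simulated counts for 8w over 3d over 2174 genes, 7.5% of genes changed 4-fold and 54% of those changed 16-fold were recovered. Ratios of pooled shares carry exact 95% intervals of counting error only, and floors are 3 counts. The depth per library ran from 11377 to 846374 split reads. Named were genes with at least 10 circles, the richest gene of each subfamily, Cdh2 and Cdh5, circles in at least 4 libraries, the 5 with the most reads, the 3 longest of up to 100 kb, all longer ones and those on a gene start. The other genes, given by their counts, and the shared Cdh1 circles were added after their values were seen. Other tools were matplotlib 3.10.9, SciPy 1.17.1, pandas 2.3.3, NumPy 2.4.6 and Python 3.11.15.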

Additional observations from a re-analysis of the deposited data

How the results depend on the processing

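The limits lie in depth, since 10 circles over 9 libraries is enough to enter the test but not to show changes of a few fold. No gene was called by edgeR under TMM scaling, by DESeq2, at other filters, with 2 reads for presence or with any library left out (0 to 0 in each comparison). On split reads summed per gene, 3, 1 and 2 of 11678 genes were called for 3d over E18, 8w over 3d and 8w over E18, none of them a family gene. Replicate numbers showed no sign of pairing: deviations of same-numbered libraries correlated at -0.042 to 0.005. Those of differently numbered libraries correlated at -0.016 to 0.044. On counts this sparse, the check cannot exclude a pairing. With the number as a replicate block, 0 genes were called in each comparison.

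The family share differed by -8.91 pairs per 10000 circles for 3d minus E18. It was -3.77 after thinning to 11377 split reads, -6.05 up to 100 kb, -4.71 by RefSeq spans and -22.2 per 10000 pairs of circle and gene. With a library left out it was -11.3 to -6.89. For 8w minus 3d it was 9.43, 5.60 after thinning, 31.0 per 10000 pairs, and 5.81 to 11.8 with a library left out. For 8w minus E18 it was 0.520, 1.75 with at least 2 reads, 1.83 after thinning, 3.70 up to 100 kb, 5.51 by RefSeq spans, 8.77 per 10000 pairs, and -3.11 to 2.64 with a library left out, negative without 8w replicate 3 (-3.11) or E18 replicate 2 (-1.06). The median length differed by 28.2 bp for 3d minus E18, by 52.3 bp with at least 2 reads and by 18.6 to 41.6 bp with a library left out. It differed by -217 bp for 8w minus 3d (-271 to -177) and by -189 bp for 8w minus E18 (-243 to -149). The cause of these changes was not tested. Circles of up to 100 kb and RefSeq spans were chosen as alternatives after seeing the data.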
